A study of Mus musculus with 44 samples.

Results

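The genes of fatty acid synthesis, desaturation, elongation, activation and oxidation, together with the PPAR receptors and their targets, were followed in glia and neurons of the mouse dorsal root ganglion (DRG). The group holds 37 genes, found by symbol among the 45882 genes of the tables for glia and whole ganglia and among the 12170 genes of the table for neurons. Synthesis is represented by Acly, Acaca, Acacb, Fasn, Acss2 and Me1, and desaturation and elongation by Scd1, Scd2, Fads1, Fads2, Elovl1, Elovl2, Elovl5, Elovl6 and Elovl7. Activation covers Acsl1, Acsl3, Acsl4, Acsl5, Acsl6 and Acsbg1, and oxidation covers Cpt1a, Cpt1c, Cpt2, Acadm, Acadl, Acadvl, Hadha, Hadhb, Ehhadh and Acaa2. The control genes Ppara, Ppard, Pparg and Ppargc1a and the PPAR targets Pdk4 and Angptl4 complete the group.

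All 44 libraries came from C57BL/6 mice with no transgene or deletion named, in 12 groups. Satellite glial cells (SGCs) are glia that enclose the cell bodies of sensory neurons. Naive mice of 9 weeks gave 4 libraries of sorted SGCs and 4 of whole DRGs, all from enzymatically dissociated and fixed L3 and L4 ganglia. Mice of 9 to 11 weeks gave 16 libraries of SGCs, prepared and sorted in the same manner 3 or 14 days after full sciatic nerve ligation or sham surgery, 4 per group. Mice of the same age gave 20 libraries of unfixed neurons, purified by magnetic beads out of L3 to L5 ganglia 8 days after partial ligation or sham surgery. Each sex had 3 libraries for either surgery, and the ligated and the opposite side, with no sex stated, had 4 each. No label says which libraries share an animal or pool animals, so p-values measure the spread between libraries only. In bulk libraries, fewer cells of a type and less RNA per cell cannot be told apart.

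Fatty acids are built in the cytosol from acetyl-CoA, then given double bonds by desaturases and lengthened by elongases at the endoplasmic reticulum. Acyl-CoA synthetases activate them, carnitine palmitoyltransferases carry them into mitochondria, and the enzymes of beta oxidation break them down again. PPARs are nuclear receptors that pair with RXR, bind fatty acids and switch on genes of fatty acid use, while sterol-regulated SREBP factors drive many genes of synthesis. Glia that make myelin or wrap neurons are known for active lipid synthesis.

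Values are FPKM, fragments scaled to transcript length and to the mapped fragments of a library, so that levels of different genes are compared per length within a table. The tables for naive tissue, for SGCs after surgery and for neurons were scaled separately, and their levels are not on 1 scale. Depth per library is unknown, and 10225 to 13173 genes reached 1 FPKM in a library. Differences below are on the scale log2(FPKM + 1), with the standard error (SE) and adjusted p of limma, and a gene is called where that p is under 0.05. The labelled cell types were checked with marker lists: 11 of 11 SGC markers were higher and 9 of 9 neuron markers lower in naive SGCs than in DRGs, each past the threshold. Neuron markers summed to 8774 to 13070 FPKM in the neuron libraries, where myelinating Schwann cell markers also summed to 728.5 to 2850 FPKM. Erythrocyte markers, with 5 of 5 detected, summed to 354.3 to 24160 FPKM in the neuron libraries, in some of them above the neuron markers. Such RNA takes a share of the FPKM of a library, and its part in the values of the lipid genes was not tested.

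In naive mice, most lipid genes had a higher FPKM in SGCs than in the whole ganglion. Of the 36 members tested (Pparg, at under 1 FPKM in every naive library, did not pass the filter on low values), 21 were higher in SGCs and 4 lower. The background in this comparison was 16.9% of all genes called higher and 27.9% called lower. The median difference was 0.60 over the members and -0.12 over all genes tested. Neuron markers summed to 102.1 to 257.5 FPKM in SGCs and 2817 to 5147 FPKM in DRGs. Endothelial markers lay in the direction of most lipid genes: 9 of 9 were above 0 and 5 were called higher in SGCs (median 0.70), with sums of 96.85 to 206.9 FPKM in SGCs and 38.92 to 83.95 FPKM in DRGs and none at 0 throughout. Erythrocyte markers summed to at most 1.11 FPKM in SGCs and to 1352 to 3220 FPKM in DRGs. The part of these other cells in the differences was not tested.

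Of the 6 synthesis genes, 5 were higher in SGCs. The largest of these differences was that of Me1, the cytosolic malic enzyme that supplies NADPH, at 79.1 ± 10 FPKM in SGCs and 33.4 ± 4.1 FPKM in DRGs (SD, n = 4 each), a difference of 1.21 ± 0.14 (adjusted p = 0.000214). Acss2, which makes acetyl-CoA from acetate, differed by 0.94 ± 0.15 (adjusted p = 0.00114). Fasn, the fatty acid synthase, differed by 0.62 ± 0.19 (adjusted p = 0.0276), a call that held in only 2 of the 8 fits leaving out 1 library (adjusted p from 0.00689 to 0.0801). Without SGC library 1, 2 or 4 or DRG library 1, 2 or 3 Fasn was not called. The other 24 called members were called in all 8 fits. The acetyl-CoA carboxylases Acaca and Acacb differed by 0.60 and 0.65. The exception was Acly, which makes acetyl-CoA from citrate, at 42.2 ± 4.9 FPKM in SGCs and 49.5 ± 5.7 FPKM in DRGs (difference -0.23 ± 0.13, adjusted p = 0.201).

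Of the 9 desaturases and elongases, 7 were higher in SGCs. Scd2, a desaturase that places the first double bond and the most abundant member in both groups, stood at 512 ± 22 FPKM in SGCs and 240 ± 21 FPKM in DRGs. Scd1, which lies near it on chromosome 19, stood at 244 ± 19 and 104 ± 8.6 FPKM. Fads1 and Fads2, which desaturate polyunsaturated fatty acids and also lie close together on chromosome 19, differed by 1.20 and 0.90, with Fads1 at 84.4 ± 5.2 FPKM in SGCs and Fads2 at 9.85 ± 1.7 FPKM. Elovl2 and Elovl5, elongases of polyunsaturated fatty acids, differed by 1.12 and 1.05, and Elovl6, which lengthens palmitate, by 0.59.

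Elovl7, an elongase of saturated fatty acids, went the other way. It stood at 3.56, 3.48, 2.14 and 2.81 FPKM in the SGC libraries and at 23.3, 25.8, 21.4 and 14.8 FPKM in the DRG libraries. Every DRG library lay above every SGC library, and the difference of -2.47 ± 0.21 (adjusted p = 4.66e-05) was the largest of any member in absolute size.

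Activation genes were split. Acsbg1, an acyl-CoA synthetase of very long chains known from glia and steroid-making cells, stood at 172, 173, 145 and 171 FPKM in the SGC libraries and 54.5, 47.7, 54.9 and 81.2 FPKM in the DRG libraries. The groups did not overlap, with a difference of 1.48 ± 0.17 (adjusted p = 0.000212), the highest among the members. Acsl1, which feeds both lipid synthesis and oxidation, was low in SGCs at 0.368, 0.524 and 0.494 FPKM with the fourth library listed at 0, against 4.80, 4.79, 4.63 and 3.97 FPKM in the DRGs. Its difference was -2.06 ± 0.18 (adjusted p = 5.19e-05), and again no libraries overlapped. Acsl5 was lower in SGCs by -0.93 (adjusted p = 0.00437), and Acsl3, Acsl4 and Acsl6 were not called. The value of Acsl6 ranged widely within the groups, from 7.19 to 28.2 FPKM in SGCs and from 16.1 to 55.2 FPKM in DRGs.

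Among the 10 oxidation genes 4 were higher and 1 lower. Cpt1a, the carnitine palmitoyltransferase that sets entry into mitochondria in most tissues, was higher (21.4 ± 2.4 against 15.6 ± 0.86 FPKM, difference 0.43, adjusted p = 0.0191). Cpt1c, the neuronal form found at the endoplasmic reticulum, was lower (3.91 ± 0.39 against 7.49 ± 0.64 FPKM, difference -0.79, adjusted p = 0.00157). The medium and long chain dehydrogenases Acadm and Acadl and the thiolase Acaa2 made up the rest of the higher genes, with differences of 0.68, 0.50 and 0.74. Acadvl, Cpt2, Hadha, Hadhb and Ehhadh were not called, with differences from -0.07 to 0.44.

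Of the PPAR control genes and targets, 4 of the 5 tested were higher in SGCs. Angptl4, a secreted inhibitor of lipoprotein lipase, stood at 37.4 ± 2.8 FPKM in SGCs and 17.5 ± 3.9 FPKM in DRGs (difference 1.07 ± 0.16, adjusted p = 0.000785). Pdk4, the kinase that shuts off pyruvate entry into the citric acid cycle, stood at 4.20 ± 1.5 and 1.59 ± 0.14 FPKM (difference 0.96). The coactivator Ppargc1a differed by 0.75 and the receptor Ppara by 0.80, with Ppara at only 3.83 ± 0.70 FPKM in SGCs. Ppard was not called (0.19 ± 0.37), and Pparg lay between 0 and 0.0276 FPKM in SGCs and between 0.290 and 0.680 FPKM in DRGs.

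Quantile normalization moved the median difference of all genes from -0.12 to 0.16 and turned the split of all calls from 2184 higher and 3605 lower to 3701 higher and 2691 lower. Members were then called 27 times as higher and 4 times as lower.

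**Figure D1:**
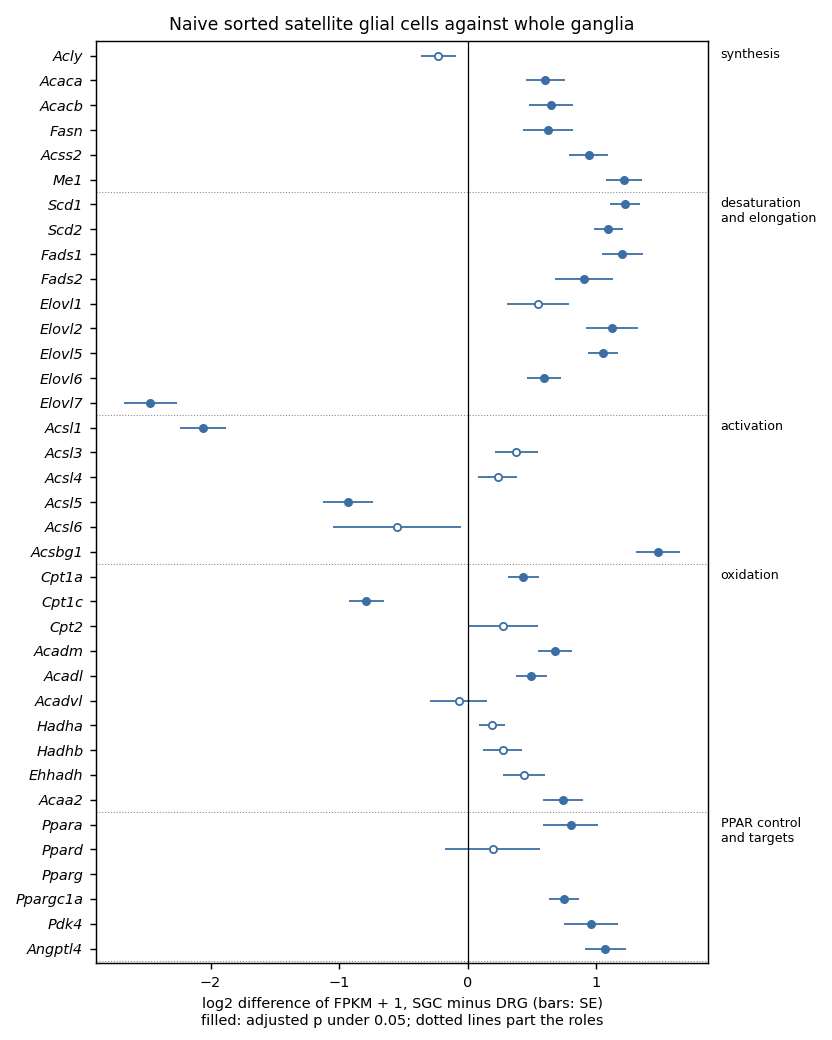
Difference between naive SGCs and DRGs for each member that passed the filter, on the log2(FPKM + 1) scale with SE, ordered by role; filled points have an adjusted p under 0.05. Most points lie right of 0, and Elovl7 at -2.47 and Acsl1 at -2.06 stand far to the left.

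Genes of the wider pathway, taken from lists of partner genes, were called in both directions. Over all genes tested in this comparison, 16.9% were called higher in SGCs and 27.9% lower. Of 10 genes of lipogenic control tested, 3 were higher and 1 lower in SGCs. Insig1, the sterol-regulated anchor of SREBP, was higher by 1.70 and the lipogenic factor Srebf1 by 0.79. Of 13 synthesis and elongation partners, 4 were higher and 5 lower, among the latter the elongase Elovl4 at -2.95. The oxidation partners gave 4 higher and 1 lower of 24, and the PPAR partners and targets 7 higher and 3 lower of 15. Among the last set the thioesterases Acot1 and Acot2 differed by 1.41 and 1.53.

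At 3 days after ligation none of the 36 members tested was called in SGCs (Pparg reached 1 FPKM in too few libraries), in a comparison where 0.0646% of all genes were called, 0.0431% as higher and 0.0215% as lower. Of the 36, 27 had a difference below 0, against 51.4% of all genes, and the median was -0.12 against -0.01 for all genes tested. At an unadjusted p under 0.05 there were 11 members, against a background of 9.11% of all genes. The ligated libraries lay wholly below the sham libraries for 5 members and wholly above for none, with backgrounds of 2.0% and 1.79% of all genes. These 5 were Acly, Elovl6, Fads1, Acsl6 and Ppargc1a.

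Within synthesis, Acly and Acss2, the sources of acetyl-CoA, were called by the authors' deposited table and not by limma. Acly stood at 60.2, 46.9, 42.7 and 49.6 FPKM in the sham libraries and at 26.2, 29.1, 32.5 and 32.6 FPKM in the ligated ones. Every ligated library lay below the lowest sham library. The difference was -0.70 ± 0.13 with an adjusted p of 0.0739, the lowest of any member. Over 15 alternative fits the limma adjusted p of Acly ran from 0.0643 with median centring to 0.528 with only the compared groups. It was 0.334 with the replicate block and 0.197 with array weights. In the authors' deposited table of differential expression, Acly fell by 0.74 on the log2 scale with an adjusted p of 0.000464, in a comparison where 0.515% of genes were lower and 0.498% higher.

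Acss2, the other source of acetyl-CoA, stood at 69.1, 44, 33.8 and 50.4 FPKM after sham surgery and 18.9, 24.6, 26.5 and 39.5 FPKM after ligation. A single ligated library reached into the sham range. Its difference of -0.83 ± 0.23 was not called by limma (adjusted p = 0.294), and in the authors' deposited table it fell by 0.90 on the log2 scale (adjusted p = 0.0181). Of the enzymes downstream, Acaca stood at 5.82 ± 1.2 and 6.08 ± 2.6 FPKM, Fasn differed by 0.20 ± 0.26 and Me1 by -0.28 ± 0.13. Acacb, the carboxylase form at the mitochondrial surface, had the highest difference of any member at 0.73 ± 0.26 (adjusted p = 0.396). It stood at 0.347, 1.01, 1.27 and 0.708 FPKM in sham and 1.79, 1.16, 2.53 and 2.78 FPKM in ligated libraries, a low level with overlapping groups.

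The coactivator Ppargc1a, which promotes mitochondrial and oxidative genes, stood at 15.6, 14.5, 17.1 and 18.2 FPKM in sham libraries. In the ligated libraries it stood at 11.5, 12, 11.8 and 11.8 FPKM, all below the lowest sham library. The difference was -0.44 ± 0.14 (adjusted p = 0.352), while in the authors' deposited table it fell by 0.45 on the log2 scale (adjusted p = 0.0295). The oxidation genes showed no such separation: none of the 10 had groups that did not overlap or an unadjusted p under 0.05, and their differences ranged from -0.26 to 0.32.

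Acly, Acss2 and Ppargc1a at 3 days and Acsbg1 at 14 days were the members that the authors' deposited tables called in SGCs, and the bases before their start sites are shown for that reason. They come from RefSeq promoters (GRCm38.p6), 5′ to 3′ on the strand of the gene, without bases that GENCODE M21 places inside the gene. Capitals mark matches to CCAAT on either strand (ATTGG on the other).
Acly promoter (chr11:100528001-100528250, minus strand): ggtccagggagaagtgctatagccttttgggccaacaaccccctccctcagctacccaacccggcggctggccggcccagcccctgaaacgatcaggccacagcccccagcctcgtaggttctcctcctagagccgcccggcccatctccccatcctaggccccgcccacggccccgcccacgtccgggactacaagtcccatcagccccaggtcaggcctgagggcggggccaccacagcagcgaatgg
Acss2 promoter (chr2:155517793-155517947, plus strand): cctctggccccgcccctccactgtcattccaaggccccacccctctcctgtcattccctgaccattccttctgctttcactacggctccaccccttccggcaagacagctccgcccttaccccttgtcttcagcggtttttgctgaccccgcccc
Acsbg1 promoter (chr9:54661886-54662135, minus strand): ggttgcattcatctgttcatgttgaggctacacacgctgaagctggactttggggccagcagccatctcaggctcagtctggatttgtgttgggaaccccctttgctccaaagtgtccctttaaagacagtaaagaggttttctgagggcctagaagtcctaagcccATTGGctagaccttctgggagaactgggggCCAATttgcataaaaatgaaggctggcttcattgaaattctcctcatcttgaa
Ppargc1a promoter (chr5:51567727-51567975, minus strand): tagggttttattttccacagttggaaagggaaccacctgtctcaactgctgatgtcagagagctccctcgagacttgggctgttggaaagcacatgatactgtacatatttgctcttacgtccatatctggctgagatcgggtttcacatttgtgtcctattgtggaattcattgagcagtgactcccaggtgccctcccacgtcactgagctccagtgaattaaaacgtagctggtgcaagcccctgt
The share of G and C was 68.8% in the stretch of Acly and 62.6% in that of Acss2, against 48.4% for Acsbg1 and 48.2% for Ppargc1a. Matches to CCAAT began 83 and 53 bases before the start in Acsbg1 and, in bases not printed, 73 bases before the start in Acss2 and 38 bases into the transcript in Acly. The window searched was 250 bases before to 50 after a start, and 32 of the 37 members had 40 such promoters. CCAAT was held by 20 of these 40 and by 37.4% of all 32851 promoters. The sterol regulatory element TCACNCCAC was held by 2, those of Acsl1 and Ehhadh (1.24% of all), the E-box CACGTG by 1, that of Elovl5 (7.15% of all), and the direct repeat bound by PPAR with RXR by 1, a promoter of Elovl1 (0.381% of all). Both strands were searched, and a match describes letters, not a bound site.

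Among desaturases and elongases at 3 days, Fads1 stood at 75.6, 81.3, 84.0 and 94.7 FPKM in sham libraries and 52.2, 74.5, 73.0 and 60.8 FPKM in ligated ones. The groups did not overlap, by a narrow margin, and the difference was -0.37 ± 0.12 (adjusted p = 0.368). Elovl6 was wider apart, at 55.6 ± 3.8 against 40.9 ± 3.0 FPKM (difference -0.43 ± 0.13, adjusted p = 0.314). The abundant Scd1 and Scd2 differed by -0.13 and -0.18, within the spread of the libraries, and Elovl2 and Elovl7 lay on the other side of 0 at 0.09 and 0.32.

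Acsl6, an acyl-CoA synthetase of polyunsaturated fatty acids, stood at 28.4, 22.6, 24.6 and 19.1 FPKM after sham surgery and 14.3, 10.2, 16.5 and 13.3 FPKM after ligation. All ligated libraries were lower, and the difference was -0.77 ± 0.27 (adjusted p = 0.396). Acsbg1 stood at 123, 138, 154 and 167 FPKM in sham and 81.4, 123, 111 and 113 FPKM in ligated libraries, meeting at 123 FPKM, with a difference of -0.45 ± 0.13 (adjusted p = 0.314). Pdk4 stood at 5.77, 3.63, 2.93 and 2.59 FPKM in sham and 0.715, 0.612, 2.21 and 4.02 FPKM in ligated libraries. Of its ligated libraries 3 lay below the lowest sham library and 1 lay within the sham range. The ligated values were spread out, and the difference of -0.83 ± 0.38 had an adjusted p of 0.531. Angptl4 stood at 36.1 ± 5.8 and 25.6 ± 7.0 FPKM (difference -0.51 ± 0.22, adjusted p = 0.509).

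Other genes of the pathway were not called at 3 days either (0 of 10, 13, 24 and 15 tested in the 4 partner lists). In the same order, ligated libraries lay wholly above sham for 1, 0, 0 and 0 genes. They lay wholly below for 0, 1, 1 and 1. The backgrounds were 1.79% and 2.0% of all genes. Srebf1 lay above its sham libraries in all ligated ones (difference 0.45 ± 0.21, adjusted p = 0.531), in the opposite direction to Acly. Its partner Insig1 differed by -0.45, and Idh1, the cytosolic source of NADPH from isocitrate, by -0.43 with no overlap. Of 9 endothelial markers 0 were called by limma, while 9 had a difference above 0 (median 0.72). Of the 9, 1 lay wholly higher after ligation, against 1.79% of all genes. Their sum was 162.1 to 310.0 FPKM in sham and 233.3 to 452.6 FPKM in ligated libraries, with none of the 9 at 0 throughout. Neuron markers summed to 169.4 to 853.0 FPKM in sham and 367.6 to 681.8 FPKM in ligated libraries. Of 9 tested, 3 were above 0 and 6 below with 0 called (median -0.15). The part of endothelial cells and neurons in the differences of the lipid genes was not tested. Adipocyte markers summed to 1.24 to 1.67 FPKM in sham and 1.77 to 18.4 FPKM in ligated libraries; the highest sum was that of ligated library 1, with the adipokine Cfd at 15.1 FPKM and Adipoq listed at 0. Pparg, the adipocyte form of PPAR, was listed at 0, 0, 0.262 and 5.05 FPKM in the ligated libraries, so its single high value was in a different library.

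**Figure D2:**
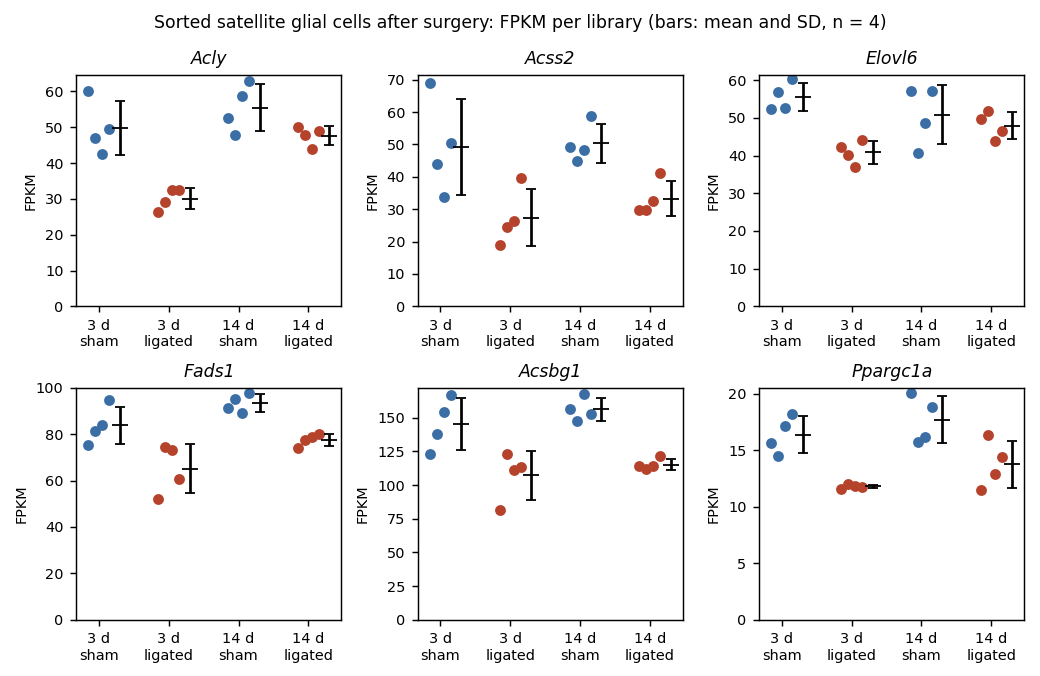
FPKM of 6 members in each SGC library after sham surgery (blue) or ligation (red) at 3 and 14 days, with mean and SD beside the 4 points of each group. At 3 days the ligated points of Acly, Elovl6, Fads1 and Ppargc1a lie below every sham point; at 14 days this holds for Acss2, Fads1 and Acsbg1.

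At 14 days no member was called by limma, in a comparison where 0.00718% of genes were. As at 3 days, 27 of 36 members had a difference below 0, against 52.2% of all genes. Their median was -0.14 against -0.02 for all genes tested, and 8 had an unadjusted p under 0.05 in limma, against 5.16% of all genes. Ligated libraries lay wholly below sham for 6 members and wholly above for none (backgrounds 2.38% and 1.69% of all genes). The 6 were Acss2, Me1, Fads1, Elovl5, Acsbg1 and Hadha. Fads1 was the member without overlap at both days. The sham and ligated groups of the 2 days came from separate libraries.

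Acsbg1 stood at 156, 148, 168 and 153 FPKM in sham libraries and 114, 112, 114 and 121 FPKM in ligated ones. The groups were well apart and the ligated libraries close to each other. The limma difference was -0.44 ± 0.13 with an adjusted p of 0.727, and in the authors' deposited table Acsbg1 fell by 0.41 on the log2 scale (adjusted p = 0.0153), where 0.412% of genes were lower and 0.641% higher. It was the member with the lowest adjusted p at this time.

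Acss2 stood at 49.4, 45.0, 48.2 and 58.9 FPKM in sham and 29.7, 29.8, 32.4 and 41.1 FPKM in ligated libraries, with no overlap and a difference of -0.59 ± 0.23 (adjusted p = 0.884). Acly, by contrast, stood at 52.5, 47.8, 58.8 and 62.9 FPKM in sham and 50.02, 47.8, 44 and 49.0 FPKM in ligated libraries, which overlapped (difference -0.21 ± 0.13). Fads1 stood at 91.5, 95.3, 89.2 and 97.8 against 74.0, 77.7, 78.6 and 80.0 FPKM. Its lowest sham library was above its highest ligated one, and the difference was -0.27 ± 0.12 (adjusted p = 0.967).

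Of the oxidation genes, Hadha, the alpha subunit of the mitochondrial trifunctional protein, stood at 43.1 ± 5.3 in sham and 33.2 ± 2.1 FPKM in ligated libraries without overlap (difference -0.36 ± 0.15, adjusted p = 0.884). Its neighbour and partner subunit Hadhb differed by -0.14 ± 0.17. Acaa2 differed by -0.40 ± 0.16 and Ppargc1a by -0.35 ± 0.14, both with overlapping groups. Ppargc1a stood at 20.1, 15.7, 16.1 and 18.9 FPKM in sham and 11.4, 16.3, 12.9 and 14.4 FPKM in ligated libraries, where 1 ligated library lay within the sham range. Pdk4 stood at 3.91, 2.66, 5.37 and 3.89 against 2.73, 1.11, 2.66 and 4.34 FPKM, again overlapping.

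In the partner lists 0 genes were called at 14 days. Of 24 oxidation partners, 19 had a difference below 0 (median -0.30), against 52.2% of all genes. Ligated libraries lay wholly below sham for 4 of the 24 and wholly above for 0 (backgrounds 2.38% and 1.69%). Among these 4 were Decr1, which handles unsaturated chains, at -0.63, and Hsd17b4, the peroxisomal multifunctional enzyme, at -0.42. Insig1 differed by -0.71 ± 0.21 (adjusted p = 0.717), also without overlap. Endothelial markers were again above 0 in 9 of 9 with 0 called (median 0.47), with sums of 136.9 to 266.6 FPKM in sham and 206.2 to 356.6 FPKM in ligated libraries. Of 9 macrophage markers 4 were tested, all above 0 with 0 called (median 0.70). The sum of the 9 was 3.69 to 19.0 FPKM in sham libraries, where 2 markers were listed at 0 throughout, and 12.9 to 35.1 FPKM in ligated libraries. SGC markers were below 0 in 9 of 11 (median -0.15), with sums of 20160 to 22200 FPKM in sham and 16910 to 21960 FPKM in ligated libraries. Neuron markers summed to 268.9 to 579.8 FPKM in sham and 265.4 to 818.1 FPKM in ligated libraries. Of 9 tested, 6 were above 0 and 3 below with 0 called (median 0.36). The part of any of these in the differences was not tested.

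The effect of ligation was not shown to differ between the days for any member: 0 of 36 were called in the test of 14 against 3 days (background 0.00718%), and 2 had an unadjusted p under 0.05, against 4.19% of all genes. The largest value was that of Acsl6 at 1.07 ± 0.38 (adjusted p = 0.9995). At 14 days Acsl6 stood at 17.8, 22.2, 35.2 and 25.1 FPKM in sham and 18.9, 50.7, 29.5 and 29.5 FPKM in ligated libraries, so its separation at 3 days was not present at 14 days. Next came Acacb at -0.57 ± 0.36, with 1.71, 1.66, 0.638 and 1.58 FPKM in sham and 1.55, 2.17, 1.22 and 1.65 FPKM in ligated libraries at 14 days. Elovl2 followed at -0.51 ± 0.29. It stood at 10.8, 15.5, 14.4 and 20.0 FPKM in sham and 11.6, 14.8, 20.1 and 18.5 FPKM in ligated libraries at 3 days. At 14 days the values were 17.6, 20.0, 23.4 and 24.3 FPKM in sham and 16.3, 13.6, 15.0 and 17.8 FPKM in ligated libraries, overlapping at both times. Acly differed between the days by 0.49 ± 0.19.

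**Figure D3:**
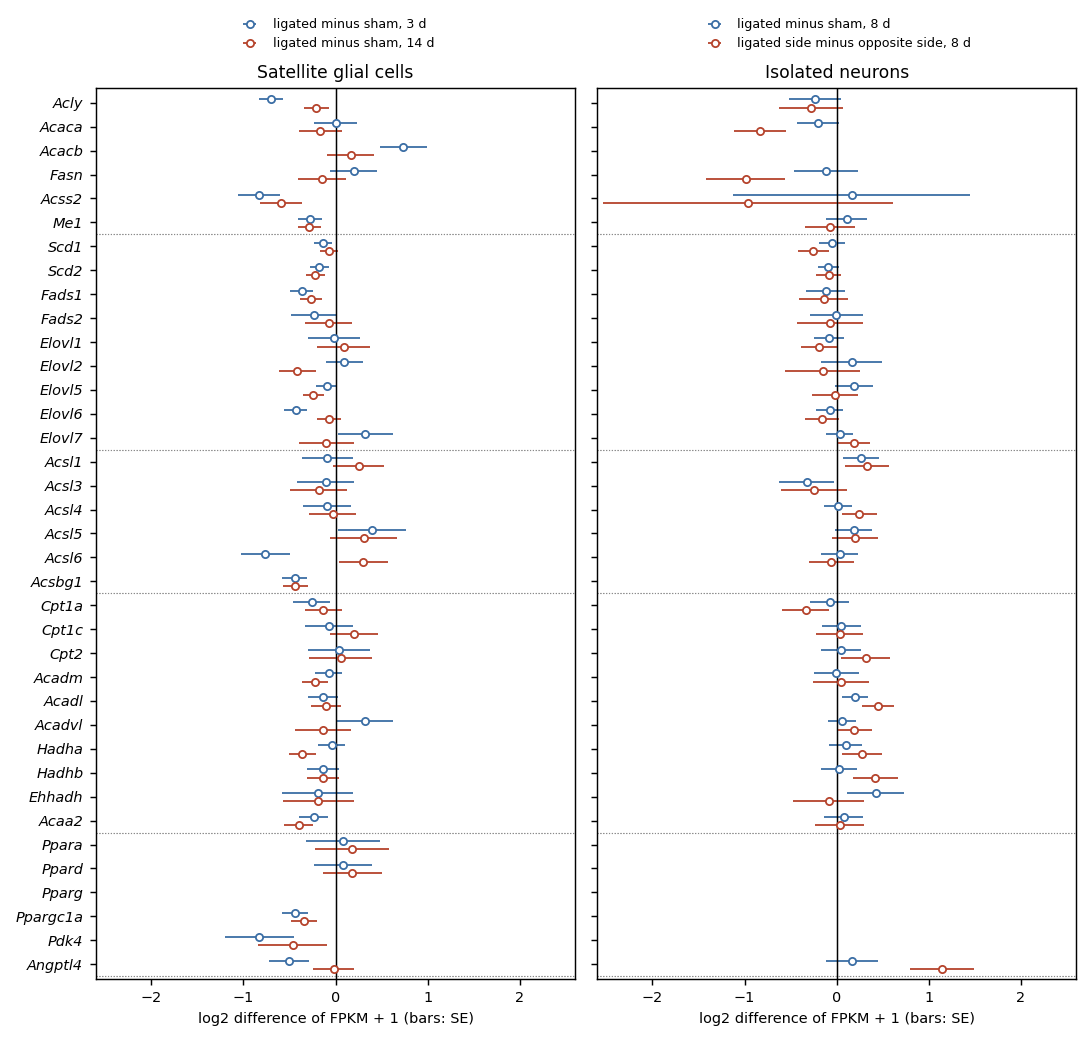
Differences of each member on the log2(FPKM + 1) scale with SE, for SGCs at 3 and 14 days (left) and for isolated neurons (right); open points are not called by limma, and no point is filled. In SGCs most points of both days lie left of 0, with Acly at -0.70 at 3 days. In neurons the synthesis genes of the ligated side lie left of 0, where the value of Acss2 rests on libraries listed at 0. Angptl4 at 1.14 lies right of 0 but passed the filter only through libraries of the ligated side.

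In isolated neurons the table had lines for 30 of the 37 members, all of which were tested. Without a line were Acacb, Acsbg1, Pdk4, Ppara, Ppard, Pparg and Ppargc1a. For these the authors' deposited neuron table gives mean normalised read counts from 0.18 for Acsbg1, 4.22 for Ppara and 5.88 for Pdk4 up to 72.6 for Ppargc1a, where Acadl had 2746. None of the 7 was called there. Which libraries entered that table is not given in the sources used here.

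Ligation against sham over both sexes gave 0 called members by limma (background 0.28%), 0 with an unadjusted p under 0.05 (3.58% of all genes) and 0 without overlap (0.692% of genes higher and 0.0988% lower). Differences were above 0 for 18 of 30 and below 0 for 12, against 56.9% of all genes below 0, with a median of 0.03 against -0.04 for all genes tested. The exception was a call in the authors' deposited table: Acadl, the long chain acyl-CoA dehydrogenase, rose by 0.33 on the log2 scale (adjusted p = 0.0156), where 1.38% of genes were higher and 0.323% lower.

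Acadl stood at 45.7, 54.7 and 61.0 FPKM in male sham and 50.3, 59.0 and 80.7 FPKM in male ligated libraries. In females it stood at 48.3, 64.6 and 55.1 FPKM after sham surgery and 57.9, 66.9 and 64.9 FPKM after ligation. The ranges overlapped in both sexes, and the limma difference was 0.20 ± 0.14 (adjusted p = 0.999).

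The largest differences over both sexes belonged to Ehhadh (0.42 ± 0.31), Acsl3 (-0.33 ± 0.29) and Acsl1 (0.27 ± 0.20), each with an adjusted p of 0.999. Ehhadh, a peroxisomal oxidation enzyme, was low in every neuron library, from listed at 0 to 2.75 FPKM: its male libraries held 0, 1.79 and 0.652 FPKM after sham surgery and 1.63, 1.92 and 2.75 FPKM after ligation, and its female libraries 1.04, 0.848 and 0.626 FPKM and 1.61, 1.16 and 0 FPKM. Acsl1 stood at 11.9, 16.4 and 15.2 FPKM in male sham and 19.8, 17.4 and 18.7 FPKM in male ligated libraries, without overlap, and at 17.6, 11.8 and 15.7 against 15.8, 14.7 and 21 FPKM in females, with overlap. Acsl3, a synthetase of lipid droplets, stood at 8.82, 10.4 and 7.49 FPKM in male sham and 4.20, 13.5 and 3.21 FPKM in male ligated libraries, and at 13.1, 14.2 and 14.5 against 13.7, 8.26 and 17.8 FPKM in females. Its ligated libraries were scattered around the sham values in both sexes.

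Within the sexes no member was called either (backgrounds 0.00823% in males and 0.148% in females), and 0 of 30 differed between the sexes in their effect (background 0.0%; 1.07% of all genes at an unadjusted p under 0.05). At an unadjusted p under 0.05 there were 0 members in males (2.65% of all genes), 0 in females (2.52%) and 0 in the test between the sexes. In males 9 of 30 members were below 0, against 58.4% of all genes, and in females 18 of 30, against 51.2%. Ligated libraries lay wholly above sham for 3 members in males, Acsl1, Elovl2 and Acsl5, and wholly below for 0 (backgrounds 2.59% and 3.1%). In females they lay wholly below for 2, Scd1 and Scd2, and wholly above for 0 (backgrounds 3.24% and 4.65%). Elovl2 was low, at 0.868, 0.915 and 0.141 FPKM in male sham and 1.62, 0.933 and 3.40 FPKM in male ligated libraries. In females it held 1.06, 0.473 and 1.20 FPKM after sham surgery and 0.788, 0.334 and 0 FPKM after ligation. The male groups were apart and the female groups overlapped, with a difference between the sexes of 1.31 ± 0.67 (adjusted p = 1). Scd1 in females stood at 255, 175 and 197 FPKM in sham and 173, 166 and 162 FPKM in ligated libraries without overlap (-0.30 ± 0.19, adjusted p = 1), and in males at 163, 219 and 215 against 225, 270 and 190 FPKM.

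In neurons Acss2 was listed at 0 in 9 of the 20 libraries and at 16.6 to 26.9 FPKM in the others, in every group. Male sham libraries held 19.8, 0 and 19.2 FPKM and male ligated ones 0, 0 and 26.4 FPKM. Female sham libraries held 0, 0 and 22.8 FPKM and female ligated ones 0, 24.3 and 26.9 FPKM. Its differences, -1.31 ± 1.82 in males and 1.63 ± 1.82 in females, had errors larger than themselves (adjusted p = 1 each). In the authors' deposited neuron table Acss2 had a mean normalised read count of 1123 and a log2 change of 0.14 ± 0.12 (SE, adjusted p = 0.744). A value of 0 FPKM therefore says only that the gene is listed at 0, and its FPKM differences in neurons are not read as changes.

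Between the ligated and the opposite side of ligated mice, no member was called in a comparison where 0.667% of genes were. Synthesis had all 5 tested members below 0 (median -0.84). Without Acss2, whose value rests on libraries listed at 0, the median of the other 4 was -0.56. Over all 30 members 17 were below 0, against 51.2% of all genes, 4 had an unadjusted p under 0.05, against 9.85% of all genes, and 1 lay wholly higher and 1 wholly lower (backgrounds 2.68% and 1.78%).

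Fasn stood at 64.4, 39.3, 49.8 and 49.3 FPKM on the opposite side and 18.6, 17.6, 47.7 and 23.3 FPKM on the ligated side. On the ligated side 3 of 4 libraries lay below every library of the other side, and the difference was -0.99 ± 0.43 (adjusted p = 0.442). In the sham comparison its values were scattered, at 72.1, 26.5 and 19.8 against 18.0, 34.0 and 22.1 FPKM in males and 30.4, 84.2 and 29.1 against 71.2, 66.3 and 26.8 FPKM in females. Acaca had ligated libraries wholly below the opposite side, at 4.74 ± 0.96 and 9.84 ± 4.9 FPKM (difference -0.84 ± 0.28, adjusted p = 0.264). Acly varied from 169 to 570 FPKM on the opposite side and from 238 to 326 FPKM on the ligated side (difference -0.28 ± 0.35). Acss2 was listed at 0 in 2 libraries of the ligated side and 1 of the opposite side.

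Angptl4 was listed at 0 in 3 libraries of the opposite side and at 0.347 FPKM in the fourth. On the ligated side it stood at 1.35, 1.78 and 3.87 FPKM, with 1 library listed at 0. The difference of 1.14 ± 0.35 was not called (adjusted p = 0.197). Angptl4 passed the filter on low values only through libraries of the ligated side, the group where it is high. Without the ligated side library listed at 0 the difference was 1.56 ± 0.28 and was called (adjusted p = 0.00924). That call came only once the library against the direction was left out, so it is not read as a change. In sham and ligated libraries of the sexes the gene did not exceed 0.418 FPKM.

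Acadl was the member wholly higher on the ligated side, at 53.2, 42.6, 57.6 and 52.7 FPKM on the opposite and 69.9, 82.6, 69.9 and 59.8 FPKM on the ligated side (difference 0.44 ± 0.18, adjusted p = 0.384). Its partners in oxidation Hadhb and Hadha differed by 0.42 ± 0.24 and 0.27 ± 0.22, and 8 of 10 oxidation genes were above 0 (median 0.12). Of the 24 oxidation partners 15 were above 0, and 2 lay wholly higher on the ligated side, against 2.68% of all genes. One of these was Slc25a20, the carrier that brings acylcarnitine into mitochondria (0.98 ± 0.38, adjusted p = 0.362). Among the 15 PPAR partners and targets 1 was called higher and 0 lower, against 0.659% and 0.00823% of all genes. This was Nrip1, a corepressor of nuclear receptors, with a difference of 1.38 ± 0.30 (adjusted p = 0.0301). It stood at 3.96 ± 0.78 FPKM on the opposite and 12.3 ± 4.3 FPKM on the ligated side. Between ligation and sham surgery over both sexes 0 of the 15 were called. Plin2, the coat protein of lipid droplets and a PPAR target, stood at 36.4 ± 21 on the opposite and 79.0 ± 14 FPKM on the ligated side (1.32 ± 0.35, adjusted p = 0.115). In that sham comparison 1 of the 15 lay wholly higher after ligation and 0 wholly lower, against 0.692% and 0.0988% of all genes. The 1 was Plin2 (0.83 ± 0.29, adjusted p = 0.738), which was called in neither comparison.

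Endothelial markers with a line in the neuron table were below 0 in 5 of 5 on the ligated side with 0 called (median -0.65), with sums of 45.3 to 123.2 FPKM on the opposite and 17.5 to 42.3 FPKM on the ligated side that did not overlap. Endothelial cells express PPAR targets and fatty acid transporters. Erythrocyte markers were above 0 in 5 of 5 with 0 called (median 0.51), with overlapping sums of 4088 to 18960 FPKM on the opposite and 10780 to 24160 FPKM on the ligated side. The part of these cells in the values of the neuron preparations was not tested.

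The mRNA ratio of related enzymes within a library does not depend on the scaling of the tables and is given here for each preparation. These ratios were chosen after the values were seen and are a description with no test. The ratio of Cpt1c to Cpt1a was 0.102 to 0.348 in the 20 SGC libraries, 0.427 to 0.551 in the DRG libraries and 2.95 to 5.48 in the neuron libraries. Elovl7 to Elovl6 ran from 0.0384 to 0.222 in SGCs, from 0.381 to 0.709 in DRGs and from 0.528 to 1.16 in neurons. Acsl1 to Acsl3 reached at most 0.146 in SGCs and lay between 0.834 and 5.82 in neurons.

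Acadvl acts on very long chains at the inner mitochondrial membrane. Its mRNA ratio to Acadl was 0.190 to 0.680 in SGCs and 1.01 to 2.82 in neurons, with DRGs at 0.330 to 0.553. The authors' mean normalised read counts of Acadvl and Acadl in SGCs were 157.8 and 6436 at 3 days and 178.9 and 6976 at 14 days. In neurons they were 2755 and 2746. These counts are not scaled to length. The gap in SGCs was far wider by counts than by FPKM, while in neurons the counts of both genes were nearly equal. The reason for this mismatch was not tested. The size of the Acadvl to Acadl ratio, and of its contrast between preparations, therefore depends on the measure. Scd2 to Scd1 varied less, at 1.69 to 2.43 in SGCs, 2.29 to 2.32 in DRGs and 1.08 to 1.64 in neurons. Acly to Acss2, an mRNA ratio only, was 0.825 to 1.69 in SGCs and 2.19 to 3.27 in DRGs. It was 10.2 to 26.5 in the neuron libraries where Acss2 was not listed at 0, so the neuron range leaves out the other libraries. The use of citrate or acetate for acetyl-CoA was not measured. After surgery the SGC ratios of the sham and ligated groups overlapped for Cpt1c to Cpt1a, for Elovl7 to Elovl6 and for Acadvl to Acadl at both days. SGCs were fixed and neurons were not, and the preparations differed in the ganglia and the method of isolation, so cell type and handling cannot be told apart here.

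**Figure D4:**
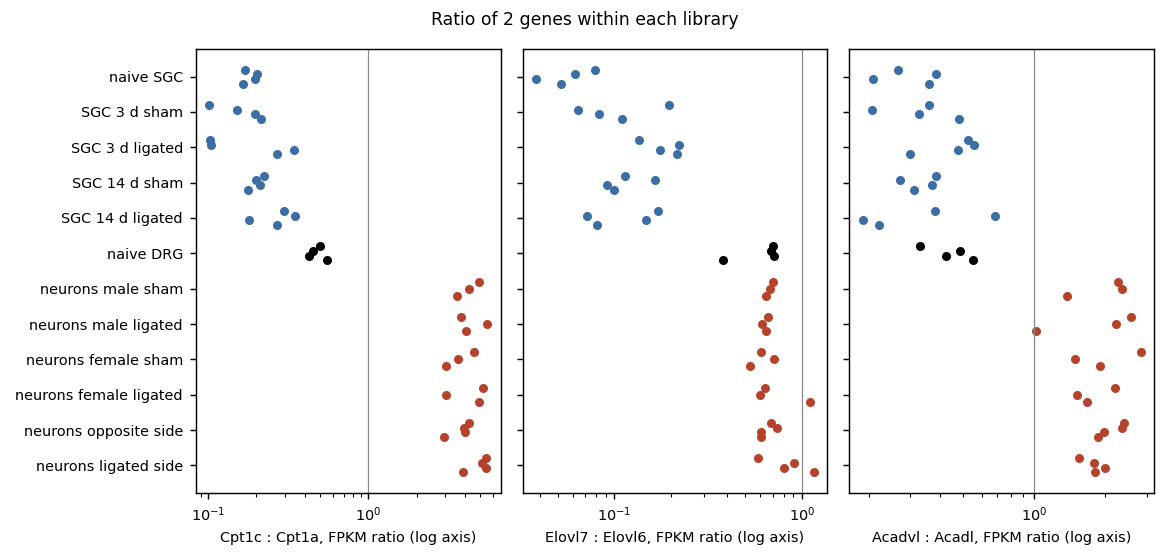
Ratio of the FPKM of Cpt1c to Cpt1a, Elovl7 to Elovl6 and Acadvl to Acadl in each library, on log axes, for SGCs (blue), naive DRGs (black) and neurons (red). The SGC libraries lie left of the neuron libraries in each panel, for Cpt1c to Cpt1a at no more than 0.348 against at least 2.95. For Acadvl to Acadl the size of the ratio depended on the measure used.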

How the data were processed

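RNA was sequenced from 44 bulk libraries in 12 groups, assigned by the labels. The tools named for the authors' work are STAR, SAMtools, Cufflinks and DESeq2, with build mm10, per the submitters' processing notes; these give no version or role. The deposited FPKM values, per the file headers, are scaled by the authors in 3 separate tables; the one for naive tissue is written with decimal commas, which were read as points. The authors' deposited tables of differential expression hold, per the file headers, a baseMean score (a mean normalised read count), a log2 fold change and a p-value adjusted for multiple tests. Their sign ran opposite to FPKM for 121 of 122 genes that these tables call and limma tested at 3 days, 151 of 152 at 14 days and 220 of 220 in neurons, so it was reversed to give ligated over sham. A further such table that names no comparison was not used.

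Values of lines with the same identifier were summed. log2(FPKM + 1) was fitted with limma 3.58.1 (R 4.3.3; mean-variance trend, two-sided, all groups of a table in 1 fit), with Benjamini-Hochberg adjustment over all genes tested. This scale understates the change of low genes. A gene was tested where at least as many libraries as the smallest group holds reached 1 FPKM. The fit was tested on simulated data. Read counts per library were not used here, so depth and counting error are unknown. Alternatives were a pseudocount of 0.1, no filter, quantile normalization, median centring, a fit of the compared groups only, array weights, a replicate block, the authors' tables and leaving out each library. Replicate numbers of neuron libraries are the order of the columns only.

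The members and lists were chosen with earlier results of these data known. Values in every library are given for members called in a surgery comparison, those without overlap at both days in the same direction, those called by the authors' tables, and the 3 with the largest absolute difference in each comparison. Promoters came from RefSeq and gene positions from GENCODE M21 (GRCm38).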

Additional observations from a re-analysis of the deposited data

Results flagged for a closer look

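Of 128 groups of 4 libraries tested over the 17 members given in every library, 8 held a library that stood apart from the other 3; chance flags about 1 group in 20. In naive SGCs, Acsl6 was at 7.19 FPKM in library 1 and Acsbg1 at 145 FPKM in library 3, each below the other libraries. Naive DRG library 2 was high for Acly at 58.0 FPKM. After ligation, SGC library 2 at 14 days was high for Fasn at 9.19 FPKM, and library 1 at 3 days was high for Acsl3 at 34.5 FPKM. Sham library 3 at 14 days was low for Acacb at 0.638 FPKM. In neurons, library 1 of the opposite side held Angptl4 at 0.347 FPKM while the others were listed at 0, and library 3 of the ligated side held Ehhadh at 1.25 FPKM.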

How the results depend on the processing

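By limma 0 members were called at 3 days, at 14 days and in neurons over both sexes, and the authors' deposited tables called 3, 1 and 1. The libraries behind the authors' neuron table are not given, so the neuron counts may not compare like with like. Leaving out each library gave 0 to 1 called members between the ligated and the opposite side, the 1 being Angptl4 without library 4 of the ligated side. In naive tissue 25 members were called, and 24 to 31 under the 14 alternatives. The number of members below 0 stayed between 23 and 28 at 3 days and between 24 and 30 at 14 days over 15 alternatives each. Counts over all genes were less stable: 9 calls at 3 days became 1 to 14, 1 at 14 days became 0 to 10, 1 in the test between the days became 0 to 4, 34 in neurons over both sexes became 21 to 48, 1 in males became 0 to 4, 18 in females became 7 to 35, 0 in the test between the sexes became 0 to 1, and 81 between the sides became 36 to 119. With the replicate number as a block 0 members were called at 3 days and at 14 days and 0 in the test between the days, and in naive tissue 24 in place of 25. Deviations of samples with the same number had correlations from -0.0758 to 0.0031 at 3 days, -0.0384 to 0.0687 at 14 days and 0.0027 to 0.186 in naive tissue. A library correlated best with its own number in 0 of 4, 1 of 4 and 2 of 4 pairs. With so few libraries, low correlations cannot show whether libraries of the same number share an animal, so the pairing remains unknown. With the block, all-gene calls were 1 at 3 days and 0 at 14 days. No paired analysis was possible in neurons because their columns carry no number found in a label. Without counts, the reliability of low genes such as Elovl2, Ehhadh and Angptl4 in neurons is unknown.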
